A study of Marmota monax with 203 samples.

Results

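The comparison described here is that of time at a constant high dose of wIFN-α (recombinant woodchuck interferon-α) in the liver of woodchucks that carry woodchuck hepatitis virus (WHV). It asked whether the effect of treatment on liver RNA differed between week 7, when the high dose began, and week 15, when it ended. The members were the biopsies of weeks 7 and 15 from animals that had both, 34 of the 164 biopsies in the series. All animals had been infected with WHV at 3 days of age and were chronic carriers. The 8 wIFN-α animals (M1002, M1003, M1012, F1013, F1014, F1018, F1020 and F1022, of which 3 were male) were injected subcutaneously 3 times a week, with 20 μg per animal for 7 weeks and then with 100 μg for 8 weeks. The 9 placebo animals (M1001, M1005, M1008, M1011, F1015, F1016, F1017, F1019 and F1021, of which 4 were male) received the vehicle on the same schedule. Biopsies were taken 6 h after a dose, so that the week 7 biopsy followed the first injection of 100 μg and the week 15 biopsy the last one. Both biopsies of a treated animal thus followed exposure to wIFN-α, and week 7 was not an untreated baseline. Animal M1004 was left out because the study took it to be clearing the virus on its own, so that 8 of the wIFN-α animals remained with both weeks.

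WHV is a hepadnavirus related to human hepatitis B virus, and animals infected as newborns usually stay infected for life. Interferon-α binds a receptor found on nearly all cells, and a signal from it to the nucleus then switches on interferon-stimulated genes (ISGs), whose products include antiviral proteins such as MX1 and the oligoadenylate synthetases. Interferon-α also acts on natural killer (NK) cells, T cells and B cells, and activated NK and T cells make interferon-γ, which induces the chemokines CXCL9, CXCL10 and CXCL11 and the MHC class II genes. In a liver biopsy, RNA of lymphocytes and macrophages is a small part of the RNA, most of which comes from hepatocytes.

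The 34 biopsies held 14739824 to 84805845 reads on genes. Levels are given as read counts per 1000000 gene reads (CPM) with TMM scaling of library sizes, and changes on the log2 scale with their standard error. The 22 hepatocyte genes together took 7.89% to 12.3% of the reads. Genes of skeletal muscle, a tissue next to the biopsied liver, took 0.0207% to 0.886% of the reads in wIFN-α biopsies and 0.0160% to 1.22% in placebo biopsies, and the highest values at both weeks were those of placebo animal F1021. The week 15 biopsy of placebo animal M1008 had been sequenced in 2 runs whose counts differed far beyond sampling noise, by a chi-square of 136.9 per degree of freedom where no other pair of runs exceeded 3.66. Both runs correlated best with the week 11 biopsy of M1008, and the runs were summed. Genes carry the human-style names that the study gave to its assembled woodchuck transcripts, without coordinates, and replicates were separate animals throughout.

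Between weeks 7 and 15 the treatment effect rose for a small group of genes that held CXCR6 of T cells, FASLG of cytotoxic cells and C1QA of macrophages, and it fell for a group that held TRIM2, PRMT6 and the long noncoding RNA NEAT1. With each of the 17 animals left out in turn, FASLG, TRIM2 and PRMT6 passed in all 17 fits. NEAT1 passed in 10 of them, CXCR6 in 7 and C1QA in 5. No gene of the type I ISG list was called for the difference. Of 15370 genes tested, 34 (0.221%) differed between the arms in their change, in the quasi-likelihood test of edgeR, with p-values adjusted by Benjamini and Hochberg's method over all genes and a threshold of 0.05. The treatment effect was higher at week 15 for 13 of them (0.0846% of the genes tested) and lower for 21 (0.137%). Another 49 genes had an adjusted p between 0.05 and 0.06, and before adjustment 2626 genes (17.1%) had a p under 0.05. The median standard error of a difference was 0.142 on the log2 scale, and the median size of a difference was 0.147. With the animals' pairing ignored (no replicate block) no gene passed, and 1376 had an unadjusted p under 0.05. With the lane of each biopsy's deepest run added as a term no gene passed either, and 2013 had an unadjusted p under 0.05. All 34 kept the sign of their difference with that term. By deepest run the 34 biopsies lay in 7 lanes. In 3 animals both biopsies lay in the same lane, with at most 2 such animals per lane, so no value within a lane could be given.

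The largest called difference belonged to CXCR6, the chemokine receptor that marks T and NK cells resident in the liver. Its level in wIFN-α animals was 0.356 to 1.69 CPM (median 0.486) at week 7 and 0.816 to 16.98 CPM (median 2.36) at week 15, and in placebo animals 0.734 to 3.30 CPM (median 1.95) at week 7 and 0.746 to 3.95 CPM (median 1.78) at week 15. The level was higher at week 15 than at week 7 in 8 of 8 wIFN-α animals and in 5 of 9 placebo animals, and the arms overlapped at both weeks. The difference of the changes was 1.97 ± 0.37 (adjusted p = 0.0433, edgeR), from a change of 1.92 ± 0.28 under wIFN-α (adjusted p = 0.000722) and -0.05 ± 0.25 under placebo (adjusted p = 0.945). At week 7 CXCR6 was lower in treated than in placebo livers, with an effect of -1.26 on the log2 scale (adjusted p = 0.0120), and at week 15 the effect was 1.09 (adjusted p = 0.107), which did not pass. Effects at a single week were fitted without the pairing by animal, so that subtracting one from the other need not give the paired difference of the changes.

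FASLG encodes the death ligand that cytotoxic lymphocytes display to cells carrying FAS. It was measured at 0.980 to 2.27 CPM (median 1.42) at week 7 and 1.37 to 4.83 CPM (median 2.33) at week 15 in wIFN-α animals. In placebo animals it was at 0.513 to 1.22 CPM (median 0.823) at week 7 and 0.329 to 0.887 CPM (median 0.464) at week 15. All 8 treated animals had more of it at week 15, 8 of 9 placebo animals had less, and the levels of the arms, which overlapped at week 7, no longer did at week 15. Levels that did not overlap between the arms were found for 13.3% of the genes tested at week 7 and for 11.6% at week 15. The difference was 1.40 ± 0.22 (adjusted p = 0.0187), to which both arms contributed, with 0.69 ± 0.16 under wIFN-α (adjusted p = 0.00724) and -0.71 ± 0.16 under placebo (adjusted p = 0.0233). FASLG was 1 of 5 genes that passed whichever of the 17 animals was left out, with IFI27L2, LOC100129316, PRMT6 and TRIM2. The other genes whose effect was higher at week 15, CXCR6 among them, passed in 5 to 10 of the 17 fits.

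IL21R, the receptor for the lymphocyte cytokine IL-21, stood at 2.77 to 9.57 CPM (median 5.44) at week 7 and 8.12 to 37.5 CPM (median 12.7) at week 15 in wIFN-α animals, where 8 of 8 animals were higher at week 15. Placebo animals had 2.75 to 6.99 CPM (median 3.84) at week 7 and 2.199 to 6.37 CPM (median 4.13) at week 15, so that the arms overlapped at week 7 and lay apart at week 15. The difference of 1.34 ± 0.27 (adjusted p = 0.0455) came with a placebo change of -0.02 ± 0.19. The gene that passed with the lowest level, at a mean of 0.875 CPM and so under the 1 CPM set for naming genes by size, was GPR18, a G protein-coupled receptor of lymphocytes, with a difference of 1.28 ± 0.25 (adjusted p = 0.0436). It was named after its value was seen, to complete the 13.

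SELPLG, the leukocyte ligand of P-selectin, had a difference of 0.96 ± 0.17 (adjusted p = 0.0305), with levels of 2.30 to 6.19 CPM (median 3.49) at week 7 and 4.12 to 11.5 CPM (median 6.06) at week 15 in wIFN-α animals and 2.98 to 6.91 CPM (median 5.002) at week 7 and 2.44 to 6.33 CPM (median 4.37) at week 15 in placebo animals, which overlapped at both weeks. For LCP2, which encodes the T cell receptor adaptor SLP-76, the difference was 0.93 ± 0.19 (adjusted p = 0.0472), the highest adjusted p among the 34. GIMAP1-GIMAP5, a label for GTPases of lymphocytes, differed by 0.93 ± 0.18 (adjusted p = 0.0436) and was higher in 8 of 8 wIFN-α animals at week 15. RASGRP3, an activator of Ras proteins, stood at 11.7 to 87.6 CPM (median 28.7) at week 7 and 49.1 to 104 CPM (median 72.5) at week 15 in wIFN-α animals and 3.59 to 6.69 CPM (median 5.33) at week 7 and 4.34 to 9.87 CPM (median 5.42) at week 15 in placebo animals. The arms of RASGRP3 were apart at both weeks, and its effect was 2.73 at week 7 and 3.68 at week 15, with a paired difference of 1.12 ± 0.20 (adjusted p = 0.0305).

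IFI27L2, a relative of the interferon-inducible gene IFI27, was the most abundant gene among the 13, at 229 to 352 CPM (median 278) at week 7 and 324 to 569 CPM (median 415) at week 15 in wIFN-α animals and 85.7 to 180.0 CPM (median 109.8) at week 7 and 81.9 to 177 CPM (median 99.2) at week 15 in placebo animals. The arms did not overlap at either week, nor did the changes of the single animals. The effect on it was 1.29 at week 7 and 1.99 at week 15, with a paired difference of 0.68 ± 0.10 (adjusted p = 0.0114). C1QA, a chain of the complement protein C1q that macrophages make, had a difference of 1.09 ± 0.22 (adjusted p = 0.0448) and levels of 34.7 to 87.1 CPM (median 67.5) at week 7 and 69.9 to 256 CPM (median 116) at week 15 under wIFN-α against 39.3 to 124 CPM (median 62.7) at week 7 and 26.7 to 118 CPM (median 61.4) at week 15 under placebo. The 3 remaining genes were ASB4 (difference 1.57 ± 0.30), HCN2, an ion channel (1.496 ± 0.30), and TSPAN5, a tetraspanin (1.28 ± 0.26). ASB4 and HCN2 fell in placebo animals, by 0.90 and 0.86, and rose in wIFN-α animals by 0.67 and 0.64, so that ASB4, whose level was 1.22 to 6.46 CPM (median 2.52) in wIFN-α animals and 2.45 to 10.7 CPM (median 7.46) in placebo animals at week 7, stood at 2.94 to 7.77 CPM (median 4.49) and 1.74 to 7.46 CPM (median 3.36) at week 15.

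**Figure D1:**
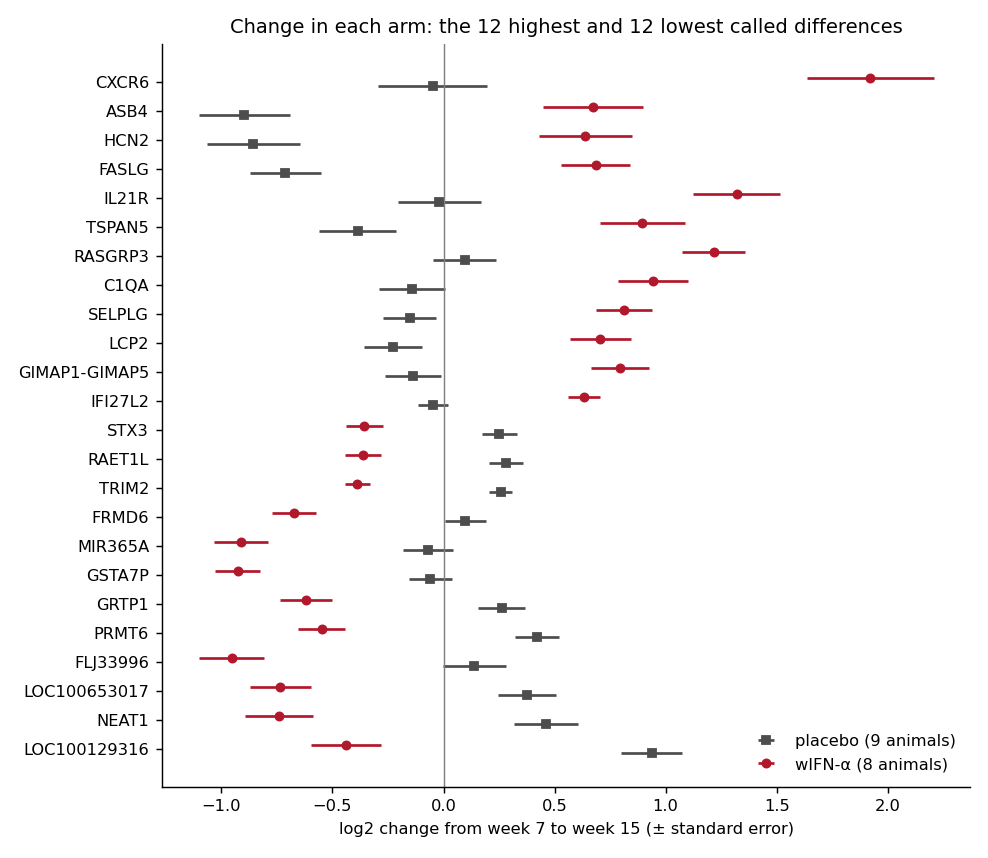
Log2 change from week 7 to week 15 (horizontal axis) of the 12 highest and 12 lowest called differences with a mean of at least 1 CPM, in 8 wIFN-α animals (circles) and 9 placebo animals (squares), with bars of 1 standard error. The 12 higher genes lie to the right of 0 under wIFN-α, from 0.63 for IFI27L2 to 1.92 for CXCR6, and the 12 lower genes to the left of it, while in placebo animals ASB4, HCN2 and FASLG lie at -0.71 or below and LOC100129316 at 0.94.

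Among the 21 genes whose effect was lower at week 15, TRIM2, a ubiquitin ligase of the TRIM family, had the smallest adjusted p. Its level was 13.3 to 27.3 CPM (median 21.9) at week 7 and 10.7 to 19.5 CPM (median 16.97) at week 15 in wIFN-α animals and 11.4 to 19.1 CPM (median 13.9) at week 7 and 11.3 to 23.4 CPM (median 17.4) at week 15 in placebo animals. All 8 treated animals were lower at week 15 and 7 of 9 placebo animals were higher, and the changes of the arms did not overlap. The difference was -0.65 ± 0.08 (adjusted p = 0.00170), from -0.39 ± 0.06 under wIFN-α and 0.26 ± 0.05 under placebo, both called. PRMT6, an arginine methyltransferase that acts on histones, had the same pattern, at 2.80 to 4.55 CPM (median 3.97) at week 7 and 2.15 to 3.07 CPM (median 2.70) at week 15 under wIFN-α and 1.86 to 3.84 CPM (median 2.96) at week 7 and 2.49 to 4.52 CPM (median 3.94) at week 15 under placebo. It was lower at week 15 in 8 of 8 wIFN-α animals and higher in 9 of 9 placebo animals, with a difference of -0.97 ± 0.14 (adjusted p = 0.0116).

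NEAT1, the nuclear long noncoding RNA around which paraspeckles form, stood at 214 to 767 CPM (median 400.5) at week 7 and 171 to 409 CPM (median 256) at week 15 in wIFN-α animals and 155 to 429.9 CPM (median 277) at week 7 and 201 to 586 CPM (median 392) at week 15 in placebo animals. It was lower at week 15 in 8 of 8 wIFN-α animals and higher in 7 of 9 placebo animals, although the arms overlapped at both weeks, and the difference was -1.20 ± 0.21 (adjusted p = 0.0272). The entry LOC100653017 differed by a like amount, -1.11 ± 0.19, and whether it shares reads with NEAT1 cannot be told from the counts. RAET1L, a ligand of the activating receptor NKG2D of NK and T cells, was at 6.81 to 13.8 CPM (median 10.9) at week 7 and 5.24 to 11.6 CPM (median 8.94) at week 15 under wIFN-α and 3.81 to 8.21 CPM (median 6.46) at week 7 and 5.20 to 9.83 CPM (median 6.91) at week 15 under placebo, lower in 8 of 8 and higher in 9 of 9 animals (difference -0.64 ± 0.11, adjusted p = 0.0272). The treatment effect on RAET1L was 0.81 at week 7 (adjusted p = 0.00143) and 0.20 at week 15 (adjusted p = 0.368). STX3, a syntaxin of membrane fusion, similarly had an effect of 0.64 at week 7 and 0.03 at week 15 (difference -0.61 ± 0.11, adjusted p = 0.0431).

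For other members of the lower group the estimated effect at week 15 was negative. With a fold change above 1.5 also required, 2 of the 21 were called lower in treated livers at week 15 and 3 higher. Over all genes 8.83% were called lower and 13.4% higher. FRMD6, a FERM domain protein, had effects of 0.25 and -0.55 (difference -0.77 ± 0.13, adjusted p = 0.0272). For GSTA7P, named after a glutathione S-transferase pseudogene, the effects were 0.29 and -0.58 and the difference -0.87 ± 0.14 (adjusted p = 0.0187), with levels of 44.5 to 99.6 CPM (median 81.0) at week 7 and 27.6 to 51.2 CPM (median 39.0) at week 15 under wIFN-α and 49.7 to 79.5 CPM (median 63.3) at week 7 and 43.5 to 85.0 CPM (median 59.7) at week 15 under placebo. GRTP1, a TBC domain protein, had effects of -0.37 and -1.23, and its arms overlapped at week 7 but not at week 15. The largest negative difference, -1.38 ± 0.21 (adjusted p = 0.0116), belonged to the uncharacterized entry LOC100129316, which rose in placebo animals and was at 1.36 to 5.04 CPM (median 3.45) at week 7 and 2.22 to 10.01 CPM (median 5.06) at week 15 there, against 0.950 to 2.81 CPM (median 1.36) at week 7 and 0.665 to 2.05 CPM (median 1.04) at week 15 under wIFN-α. The transcript labelled MIR365A, which is not the mature microRNA, and FLJ33996 differed by -0.84 and -1.09, and the 9 genes outside the 12 by -0.35 to -0.55.

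The called differences lay mainly in the treated arm. All 13 higher genes rose under wIFN-α and 3 of them fell under placebo, while 19 of the 21 lower genes fell under wIFN-α and 6 rose under placebo. Over all genes, 2451 (15.9%) changed between the weeks in wIFN-α animals, 1370 up (8.91%) and 1081 down (7.03%), and 452 (2.94%) changed in placebo animals, 258 up (1.68%) and 194 down (1.26%). The standard errors of the arms were alike, with medians of 0.104 and 0.0976. Both arms changed in the same direction for 187 genes, which is 7.63% of the genes called under wIFN-α and 41.4% of those called under placebo, and in opposite directions for 7. The changes of the single animals did not overlap between the arms for 11 of the 34 called genes, and for 21 of all genes tested (0.137%).

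T cell genes had more called changes in wIFN-α animals than any other immune list, in number. Of 29 T cell genes tested, 23 rose from week 7 to week 15 under wIFN-α and none fell, against 8.91% and 7.03% of all genes, and none changed under placebo. The median change was 0.92 under wIFN-α and -0.04 under placebo, where the median of all genes was 0.00053 and 0.0080. For the difference between the arms CXCR6 alone passed, while 23 of the 29 had an unadjusted p under 0.05, all of them higher, where 8.5% of all genes did so, and the median difference was 0.92 against -0.01 over all genes. Together these genes took 0.0132% to 0.0220% of the reads in wIFN-α animals at week 7 and 0.0180% to 0.0499% at week 15, higher in 8 of 8 animals, and 0.00907% to 0.0146% and 0.00691% to 0.0153% in placebo animals, higher in 3 of 9. In RNA of whole tissue, more cells of a type and more RNA per cell cannot be told apart.

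CD2, an adhesion receptor of T and NK cells, was at 0.119 to 1.38 CPM (median 0.379) at week 7 and 0.597 to 5.40 CPM (median 1.64) at week 15 in wIFN-α animals and 0.226 to 0.940 CPM (median 0.476) at week 7 and 0.107 to 1.24 CPM (median 0.348) at week 15 in placebo animals. It was higher at week 15 in 8 of 8 treated and 4 of 9 placebo animals, and rose under wIFN-α by 2.09 ± 0.33 (adjusted p = 0.00101), while the difference of 2.10 ± 0.45 missed the threshold (adjusted p = 0.0543). CD3D, a chain of the T cell receptor complex, rose by 0.72 ± 0.15, at 3.33 to 9.39 CPM (median 5.29) at week 7 and 4.56 to 27.6 CPM (median 8.35) at week 15 (adjusted p = 0.00524), and its changes did not overlap between the arms. CD8A, the coreceptor of cytotoxic T cells, rose by 0.94 ± 0.19 (adjusted p = 0.00387), and TBX21, the transcription factor T-bet, by 1.11 ± 0.19 (adjusted p = 0.00180). LAT, an adaptor of the T cell receptor, rose by 0.94 ± 0.17 (adjusted p = 0.00246). The differences of these 4 genes were 0.86, 1.03, 1.23 and 1.01, with adjusted p of 0.0631, 0.0667, 0.0543 and 0.0615. Animal F1020, which died after that biopsy, had the highest T cell levels at week 15. Without any single animal 21 to 23 T cell genes rose under wIFN-α and 0 to 10 passed for the difference.

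Among genes of cytotoxic granules and NK cells, NKG7 and PRF1 rose under wIFN-α, while GZMB and KLRK1 did not pass the test. Of 19 tested, 8 rose under wIFN-α, where 8.91% of all genes did so. The 1 member that fell under placebo (1.26% of all genes), FASLG, was also the 1 member called for the difference. NKG7, a protein of cytotoxic granules, rose by 0.73 ± 0.15 (adjusted p = 0.00437), at 1.81 to 5.81 CPM (median 3.11) at week 7 and 2.92 to 15.3 CPM (median 5.05) at week 15, and its changes did not overlap between the arms, with a difference of 0.96 ± 0.21 (adjusted p = 0.0543). PRF1, which encodes perforin, rose by 1.05 ± 0.22 (adjusted p = 0.00488), GZMA by 0.78 ± 0.24 (adjusted p = 0.0325) and CD160, a receptor of NK and CD8+ T cells, by 1.26 ± 0.20 (adjusted p = 0.00110). GZMB, the other classic granzyme, was at 0.647 to 4.43 CPM (median 1.56) at week 7 and 0.472 to 5.04 CPM (median 1.10) at week 15 in wIFN-α animals, with a change of -0.38 ± 0.18 (adjusted p = 0.163). KLRK1, the gene of NKG2D, had a change of 0.76 ± 0.26 (adjusted p = 0.0533).

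Of 18 checkpoint and regulatory genes, 9 rose under wIFN-α, none fell, and 1 fell under placebo, where 8.91%, 7.03% and 1.26% of all genes did so. None passed for the difference, and 9 had an unadjusted p under 0.05, all higher, where 8.5% of all genes did so. PDCD1, the gene of the inhibitory receptor PD-1, was at 2.06 to 13.3 CPM (median 4.12) at week 7 and 3.74 to 66.0 CPM (median 13.6) at week 15 in wIFN-α animals and 0.813 to 10.1 CPM (median 2.92) at week 7 and 0.870 to 6.89 CPM (median 3.02) at week 15 in placebo animals. It was higher at week 15 in 8 of 8 treated animals, although its arms overlapped at both weeks, and rose by 1.74 ± 0.34 (adjusted p = 0.00338; difference 1.88 ± 0.47, adjusted p = 0.0667). CTLA4 rose by 1.75 ± 0.34, FOXP3, the factor of regulatory T cells, by 1.11 ± 0.26, and TOX, a factor of chronically stimulated T cells, by 1.26 ± 0.29 (adjusted p = 0.00301, 0.00896 and 0.00749). CD274, which encodes the PD-1 ligand PD-L1, was already 2.15 higher in treated livers at week 7 (adjusted p = 6.37e-11) and 2.52 higher at week 15, with a difference of 0.42 ± 0.21 (adjusted p = 0.322).

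**Figure D2:**
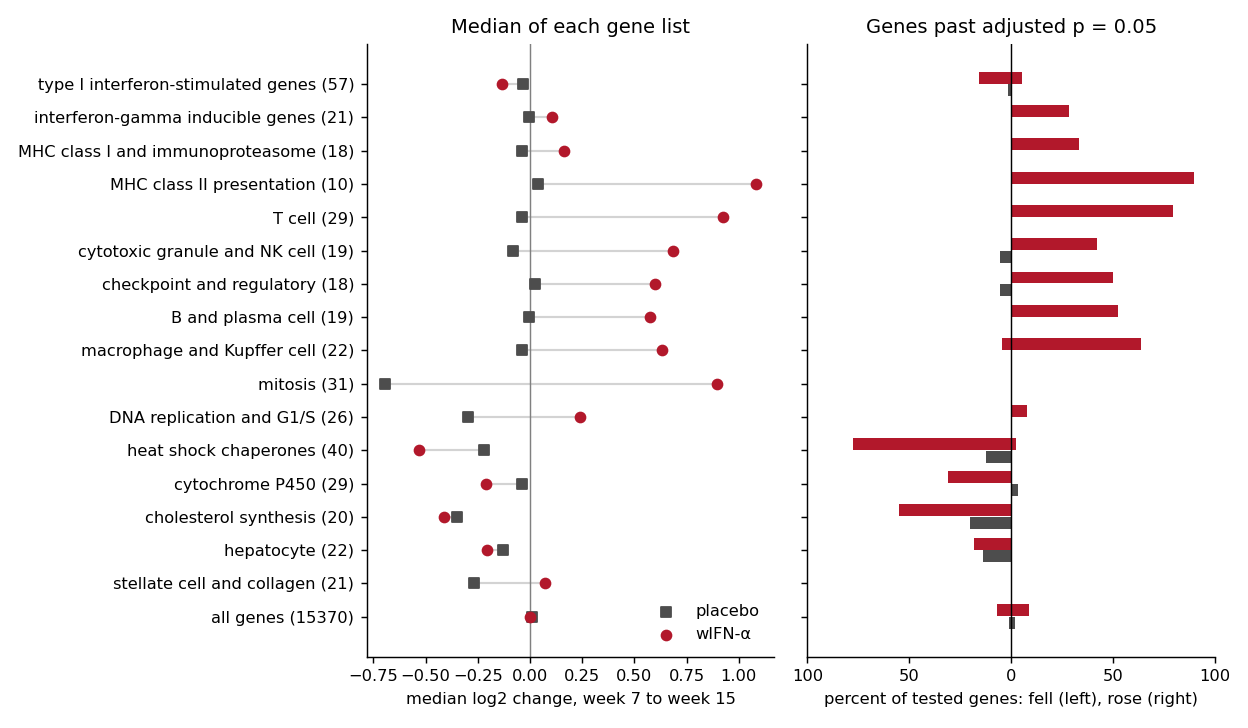
Left, median log2 change from week 7 to week 15 of 16 gene lists and of all genes in wIFN-α animals (circles) and placebo animals (squares), with the number of genes tested in brackets. Right, percent of each list that rose (to the right) or fell (to the left) at an adjusted p under 0.05 in each arm. The T cell, MHC class II and macrophage lists lie near 0.6 to 1.1 under wIFN-α and near 0 under placebo, and heat shock chaperones and cholesterol synthesis genes lie below 0 in both arms.

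MHC class II molecules present peptides to CD4+ T cells. Of 10 tested, 9 rose under wIFN-α and none fell, where 8.91% and 7.03% of all genes did so. None changed under placebo, and the median change was 1.08 against 0.04. None passed for the difference, whose median was 1.02. An unadjusted p under 0.05 was found for 9 of 10, all higher, where 8.5% of all genes did so. HLA-DRA was at 38.2 to 209 CPM (median 64.8) at week 7 and 89.7 to 584 CPM (median 143) at week 15 in wIFN-α animals, higher in 8 of 8 animals, and at 39.4 to 183 CPM (median 88.8) at week 7 and 26.2 to 233 CPM (median 121) at week 15 in placebo animals, and its arms overlapped at both weeks (difference 1.24 ± 0.35, adjusted p = 0.0902). HLA-DPA1 rose by 1.24 ± 0.24 (adjusted p = 0.00304), and CIITA, the transcription factor that drives these genes, by 0.82 ± 0.13 (adjusted p = 0.00118; difference 0.76 ± 0.18, adjusted p = 0.0615). The treatment effect on the 10 genes was called for 0 at week 7 and for 4 at week 15, all higher, where 11.4% and 13.4% of all genes were called higher.

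Of 22 genes of macrophages and Kupffer cells, 14 rose and 1 fell under wIFN-α, where 8.91% and 7.03% of all genes did so, and none changed under placebo. C1QA was the one member that passed for the difference. An unadjusted p under 0.05 was found for 16, all higher, where 8.5% of all genes did so. The other C1q chains had like values, with differences of 1.08 ± 0.24 for C1QB and 1.13 ± 0.25 for C1QC (adjusted p = 0.0543 for each). VSIG4, a complement receptor of Kupffer cells, had an effect of -0.61 in treated against placebo livers at week 7 (adjusted p = 0.0370) and rose by 0.74 ± 0.19 under wIFN-α (adjusted p = 0.0157), and its effect at week 15 was 0.32 (adjusted p = 0.412). The summed level of the list was 0.0628% to 0.108% of the reads at week 7 and 0.0832% to 0.217% at week 15 in wIFN-α animals, higher in 8 of 8, and 0.0557% to 0.101% and 0.0480% to 0.108% in placebo animals, higher in 4 of 9.

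B and plasma cell genes had 10 of 19 up and none down under wIFN-α, where 8.91% of all genes rose, and none changed under placebo. The 10 became 5 without F1018 and 6 without F1020 or M1003. POU2AF1, a coactivator of immunoglobulin genes, was at 2.95 to 5.57 CPM (median 3.89) at week 7 and 5.25 to 14.2 CPM (median 7.55) at week 15 in wIFN-α animals and 4.51 to 8.86 CPM (median 6.54) at week 7 and 3.55 to 9.53 CPM (median 6.19) at week 15 in placebo animals. Its effect was negative at week 7, at -0.80 (adjusted p = 0.000318), and 0.37 at week 15 (adjusted p = 0.172), and the changes did not overlap between the arms (difference 1.10 ± 0.23, adjusted p = 0.0543). MZB1, a protein of antibody-secreting cells, rose by 1.80 ± 0.36 (adjusted p = 0.00385) and CD79A, part of the B cell receptor, by 1.16 ± 0.31 (adjusted p = 0.0183). No member of the list passed for the difference, and 10 had an unadjusted p under 0.05, all higher, where 8.5% of all genes did so.

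Nearly all type I interferon-stimulated genes were far higher in treated livers at both weeks, and none was called for the difference. Of 57 tested, 55 were higher in wIFN-α than in placebo animals at week 7 and 55 at week 15, where 11.4% and 13.4% of all genes were called higher. The median effects were 3.28 and 3.29, and the median difference between the weeks was -0.07. An unadjusted p under 0.05 was found for 4 in each direction, against 8.5% of all genes higher and 8.59% lower. Together the list took 3.37% to 4.01% of the reads at week 7 in wIFN-α animals and 2.74% to 4.03% at week 15. That sum was higher at week 15 in 2 of 8 wIFN-α animals and in 4 of 9 placebo animals. MX1, a GTPase that traps viral nucleocapsids, was at 7133 to 8714 CPM (median 8211) at week 7 and 5065 to 8505 CPM (median 7537) at week 15 in wIFN-α animals and 519.7 to 909 CPM (median 639.8) at week 7 and 504 to 748 CPM (median 659.7) at week 15 in placebo animals, and the arms lay far apart at both weeks (difference -0.18 ± 0.12, adjusted p = 0.437). ISG15, a ubiquitin-like modifier, was at 845 to 1117 CPM (median 998) at week 7 and 669 to 1073 CPM (median 785) at week 15 in wIFN-α animals against 5.25 to 44.5 CPM (median 9.73) at week 7 and 5.68 to 25.1 CPM (median 8.57) at week 15 in placebo animals (difference -0.21 ± 0.21, adjusted p = 0.654). RSAD2 (viperin), IFIT1, OAS1 and USP18, the protease that removes ISG15, had effects of 7.15, 5.30, 5.15 and 5.53 at week 7 and 7.28, 5.36, 5.24 and 5.62 at week 15.

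Within the treated arm 3 of the 57 rose and 9 fell, where 8.91% and 7.03% of all genes did so, and under placebo 1 fell. ZBP1, a sensor of nucleic acids that can start cell death, rose by 0.86 ± 0.13 (adjusted p = 0.000873), at 129 to 262 CPM (median 183) at week 7 and 286 to 378 CPM (median 324) at week 15. TRIM25, a ubiquitin ligase of RNA sensing, rose by 0.36 ± 0.06 (adjusted p = 0.00118), and PARP12 fell by 0.20 ± 0.06 (adjusted p = 0.0277). Their differences of 0.77 ± 0.19, 0.38 ± 0.08 and -0.30 ± 0.08 had adjusted p of 0.0631, 0.0543 and 0.0771. Leaving out single animals gave 1 to 10 members that fell under wIFN-α, with 1 without F1020, 2 without F1018 or M1003 and 4 without F1022.

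The interferon-γ inducible genes and the MHC class I genes lay between these patterns. Of 21 interferon-γ inducible genes, 6 rose under wIFN-α and none fell, where 8.91% and 7.03% of all genes did so. None changed under placebo and none passed for the difference. Higher in treated livers were 19 at week 7 and all 21 at week 15, against 11.4% and 13.4% of all genes. With IFNG included, the list together took 0.985% to 1.37% of the reads at week 7 in wIFN-α animals and 0.776% to 1.26% at week 15. That sum was higher at week 15 in 1 of 8 wIFN-α animals and in 0 of 9 placebo animals. CXCL9, a chemokine for T cells, rose by 1.41 ± 0.36 (adjusted p = 0.0138), at 44.6 to 720.2 CPM (median 113) at week 7 and 105 to 1893 CPM (median 351) at week 15, and the arms overlapped at both weeks. CXCL11 rose by 0.94 ± 0.30 (adjusted p = 0.0395), while the most abundant chemokine of the family, CXCL10, had a change of -0.32 ± 0.16 (adjusted p = 0.183) on levels of 2332 to 5578 CPM (median 4417) at week 7 and 2219 to 5036 CPM (median 3136) at week 15. ICAM1, an adhesion molecule that lymphocytes bind, rose by 0.96 ± 0.18 (adjusted p = 0.00227), and GBP1, IDO1 and PLA2G2A had changes of -0.05 ± 0.16, 0.77 ± 0.31 and 0.47 ± 0.45 that did not pass. IFNG itself was too low for the test, at 0 to 0.372 CPM (median 0.103) in wIFN-α animals at week 7 and 0 to 4.21 CPM (median 0.430) at week 15, and at no more than 0.306 CPM in any placebo animal at either week. Of 18 MHC class I and immunoproteasome genes, all were higher in treated livers at both weeks and 6 rose further. The 6 interferon-γ inducible genes that rose became 3 without F1014, F1018 or F1020, and the 6 MHC class I and immunoproteasome genes became 1 without F1018 or F1020.

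Mitosis genes had a median effect that was higher at week 15 than at week 7, and no single gene of them passed the adjusted threshold in edgeR. The median difference over 31 genes was 1.53, and 27 had an unadjusted p under 0.05, all higher, where 8.5% of all genes did so. None passed the adjusted threshold for the difference or in either arm. That count changed with the tool and with single animals, since under wIFN-α 8 rose with DESeq2, 9 with limma-voom, 16 without F1014 and 8 without M1012. Over all genes 1654, 1530, 1318 and 1540 rose in the same fits. For the difference 14 were called higher with DESeq2, 0 with limma-voom and 1 without F1014, where 411, 38 and 63 of all genes were. The arms had median changes of 0.89 under wIFN-α and -0.69 under placebo. TOP2A, the topoisomerase of dividing cells, was at 3.23 to 17.9 CPM (median 12.6) at week 7 and 3.37 to 42.3 CPM (median 17.9) at week 15 in wIFN-α animals and 4.96 to 26.6 CPM (median 7.72) at week 7 and 2.60 to 9.58 CPM (median 5.45) at week 15 in placebo animals, higher at week 15 in 5 of 8 treated and 2 of 9 placebo animals (difference 1.87 ± 0.64, adjusted p = 0.140). CDK1, the kinase of entry into mitosis, had effects of 0.64 at week 7 (adjusted p = 0.247) and 3.04 at week 15 (adjusted p = 3.19e-05), and MKI67 of 0.50 and 1.96. UBE2C and ASPM had the smallest p of the list, with differences of 2.23 ± 0.65 and 2.11 ± 0.63 (adjusted p = 0.0974 and 0.102), and CCNB1 differed by 2.13 ± 0.69. Of the 31 genes, 1 was called higher in treated livers at week 7 and 28 at week 15, against 11.4% and 13.4% of all genes. Of 26 genes of DNA replication, 2 rose under wIFN-α (5 without F1014), where 8.91% of all genes did so. For the difference 12 had an unadjusted p under 0.05, all higher, where 8.5% of all genes did so.

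Heat shock chaperones, which refold proteins, were added as a list after chaperone genes were seen among those with small p, so their counts are a description. Of 40 tested, 31 fell and 1 rose under wIFN-α, and 5 fell under placebo (0 without F1015 or F1019), with median changes of -0.53 and -0.22. Over all genes 7.03% fell and 8.91% rose under wIFN-α, and 1.26% fell under placebo. HSPA8, the constitutive HSP70, was at 1624 to 3212 CPM (median 1937) at week 7 and 618 to 1959 CPM (median 746) at week 15 in wIFN-α animals and 491 to 1572 CPM (median 898) at week 7 and 278 to 824 CPM (median 581) at week 15 in placebo animals. It was lower at week 15 in every animal of both arms, and fell by 1.31 ± 0.16 under wIFN-α and by 0.63 ± 0.15 under placebo (adjusted p = 0.000273 and 0.0308). The inducible HSPA1B was at 710.1 to 2237 CPM (median 1106) at week 7 and 30.3 to 1351 CPM (median 118) at week 15 in wIFN-α animals and 44.0 to 321 CPM (median 238) at week 7 and 34.5 to 305 CPM (median 120.0) at week 15 in placebo animals, so that at week 7 every treated animal lay above every placebo animal and at week 15 the arms overlapped. HSP90AA1, HSPH1, HSPA4L and DNAJA1 fell under wIFN-α by 0.90, 1.43, 1.16 and 0.78, and their differences between the arms were -0.58, -1.19, -0.89 and -0.37 (adjusted p = 0.0766, 0.0543, 0.0543 and 0.211). The summed list took 0.783% to 1.32% of the reads at week 7 and 0.392% to 0.885% at week 15 under wIFN-α, and 0.423% to 0.660% and 0.315% to 0.513% under placebo.

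**Figure D3:**
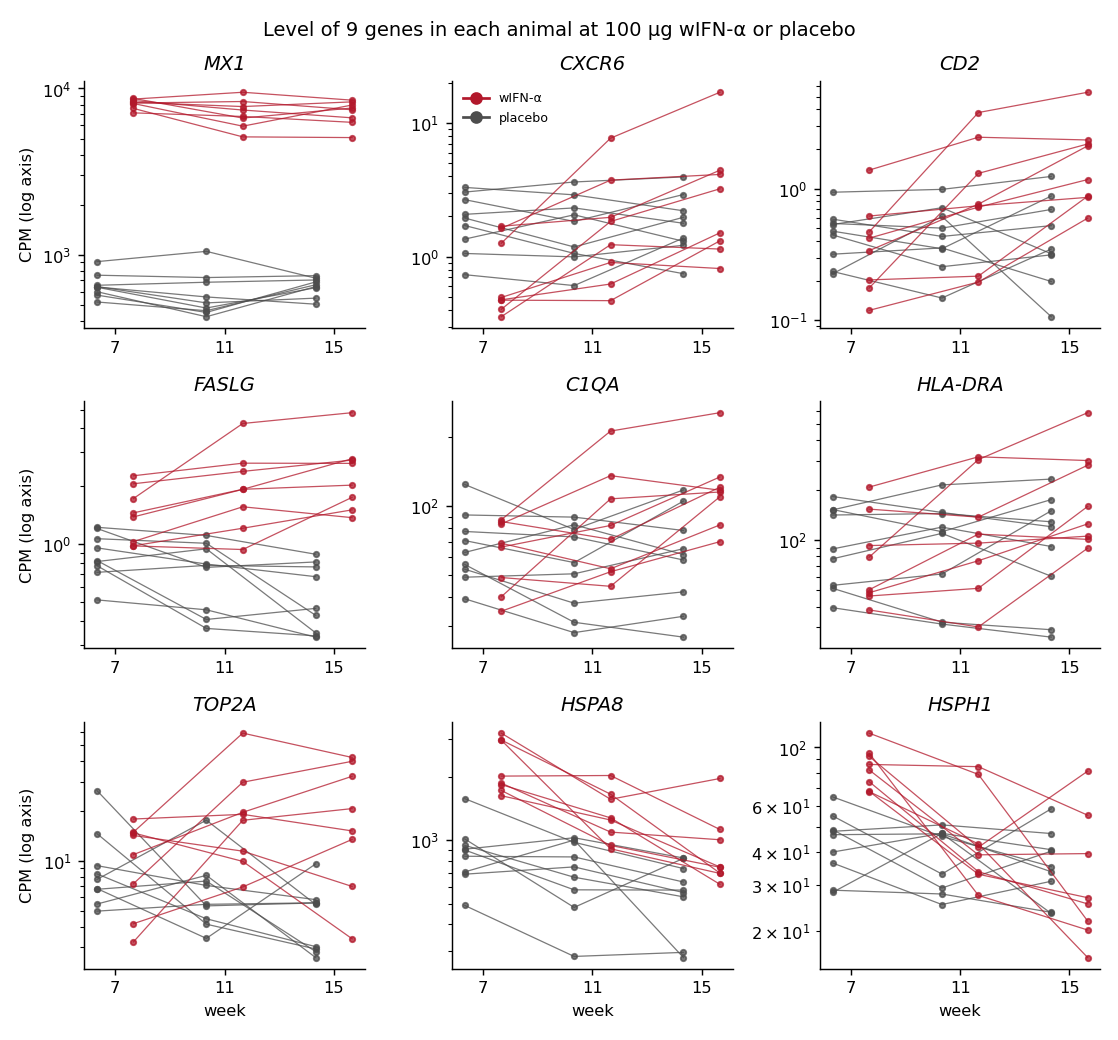
Level of 9 genes in CPM (log axis) at weeks 7, 11 and 15 in each of 8 wIFN-α and 9 placebo animals, with lines joining the biopsies of an animal and the arms set slightly apart sideways. MX1 arms lie far apart at every week, with treated animals at 7133 to 8714 CPM at week 7 and 5065 to 8505 at week 15. FASLG separates by week 15, where treated animals lie at 1.37 to 4.83 CPM and placebo animals at 0.329 to 0.887. HSPA8 of treated animals descends toward the placebo levels. HSPH1 is lower at week 15 than at week 7 in treated animals, at 15.9 to 81.3 CPM, a wider range than the 23.4 to 58.4 of placebo animals.

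Hepatocyte genes that changed fell, in both arms. Of 22 tested, 4 fell under wIFN-α and 3 under placebo, where 7.03% and 1.26% of all genes did so, none passed for the difference, and its median was -0.02. The 4 became 2 without F1018, F1020, F1022, M1002 or M1003. ALB, albumin, was at 25566 to 53640.0 CPM (median 36544) at week 7 and 21365 to 57231 CPM (median 35676) at week 15 in wIFN-α animals and had a difference of -0.01 ± 0.20 (adjusted p = 0.987). Cytochrome P450 genes, which oxidize drugs and sterols, had 9 of 29 down and none up under wIFN-α and 1 up under placebo, and 7 had an unadjusted p under 0.05 for the difference, all lower, where 8.59% of all genes did so. CYP2A6 fell under wIFN-α by 1.08 ± 0.27 (adjusted p = 0.0126), at 257 to 576 CPM (median 456) at week 7 and 100.2 to 493.02 CPM (median 192) at week 15, and was at 354 to 1433 CPM (median 705) at week 7 and 348 to 1774 CPM (median 772) at week 15 in placebo animals (difference -1.25 ± 0.36, adjusted p = 0.0973). CYP4B1 fell by 0.67 ± 0.15 (adjusted p = 0.00562), while CYP7A1, the rate-limiting enzyme of bile acid synthesis, had an effect of -2.42 in treated against placebo livers at week 7 and -2.33 at week 15 (difference 0.11 ± 0.41), and CYP2E1 differed by 0.27 ± 0.37. Of the cholesterol synthesis genes, 11 of 20 fell under wIFN-α and 4 under placebo (1 without M1008 and 7 without F1021), with a median difference of -0.08 and none with an unadjusted p under 0.05.

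The remaining lists held no gene called for the difference. Their counts are to be read against 8.91% of all genes that rose and 7.03% that fell under wIFN-α, and 1.68% and 1.26% under placebo. For the difference, 8.5% of all genes were higher at an unadjusted p under 0.05. Dendritic cell, neutrophil and chemokine genes had 3 of 9, 4 of 15 and 6 of 16 members with an unadjusted p under 0.05, all higher, and 4 members of each rose under wIFN-α. Without F1020 these became 1, 1 and 2, and dendritic cell and neutrophil genes also had 1 without F1022. Under placebo 2 neutrophil genes rose and 1 fell, and no dendritic cell or chemokine gene changed. Of 19 circadian clock genes, 5 rose under wIFN-α (1 without M1003), none changed under placebo and none had an unadjusted p under 0.05 for the difference. Interferon receptor and signal transduction genes had 4 of 17 up under wIFN-α (1 without F1018, F1020 or M1003) and none changed under placebo, and cell death genes had 5 of 16 down (2 without M1003) and 2 down under placebo. Acute phase, complement and unfolded protein genes had 2 of 18, 3 of 16 and 4 of 17 down under wIFN-α, and 3, 1 and 1 down under placebo. Single animals moved these counts widely, and with each of the 17 left out in turn 1 to 6, 0 to 5 and 0 to 10 fell under wIFN-α, the most without F1013 in each list. None of 21 stellate cell and collagen genes and none of 13 endothelial genes changed in either arm by edgeR, while DESeq2 and limma-voom each called 2 endothelial genes higher under wIFN-α. Of 17 genes of fatty acid synthesis 1 fell, and of 17 genes of fatty acid oxidation 1 rose and 1 fell under wIFN-α. Bile duct genes had 2 of 14 up and 1 down under wIFN-α. The 20 skeletal muscle genes had a median difference of 4.27, larger than any other list, with none at an unadjusted p under 0.05, and erythrocyte and skin genes had 0 of 6 called for the difference in each list.

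How many list members were called for the difference depended on the tool. On simulated counts DESeq2 called 21 unchanged genes, limma-voom 9 and edgeR 4. Those counts were drawn independently for each gene with dispersions estimated by edgeR. They therefore cannot tell which calls in the measured data are false. With DESeq2, which called 667 of all genes, higher values were called for 17 of 29 T cell, 10 of 22 macrophage, 6 of 10 MHC class II, 6 of 19 cytotoxic, 5 of 18 checkpoint and 5 of 19 B and plasma cell genes, and lower ones for 16 of 40 heat shock chaperones. With limma-voom, which called 72 of all genes, the same lists had 1, 3, 0, 2, 0 and 1 called higher and 1 chaperone called lower. Of the interferon-stimulated genes DESeq2 called 2 higher and 1 lower, and limma-voom 1 higher. Without placebo animal M1011, where 275 genes were called, edgeR called 10 T cell, 8 macrophage, 6 MHC class II and 3 interferon-stimulated genes higher.

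The biopsies of week 11, taken from the same 17 animals at the same dose, gave the order in time, and share their week 7 or week 15 partners with the comparisons above. With a fold change above 1.5 required as well as the adjusted threshold, the treatment effect passed for 3154 of 14841 genes (21.3%) at week 7, 2991 of 14933 (20.0%) at week 11 and 3327 of 14943 (22.3%) at week 15. From week 7 to week 11 the effect differed for 5 of 15372 genes (0.0325%), 4 higher (0.026%) and 1 lower (0.00651%), and from week 11 to week 15 for 0 of 15451 (0.0%) by edgeR, where 1926 (12.5%) and 1170 (7.57%) had an unadjusted p under 0.05. The 5 genes were SORCS2, MCM8, RBP5 and TTC7A, higher at week 11 by 1.27, 0.69, 0.55 and 0.51, and RWDD2A, lower by 1.63 on the log2 scale (-1.63). They were named after their values were seen.

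T cell genes called higher in treated livers numbered 4 of 27 at week 7, 13 of 28 at week 11 and 21 of 29 at week 15, where 11.4%, 12.2% and 13.4% of all genes were called higher, and their median effect was 0.19, 0.88 and 1.21. Macrophage genes had 0, 4 and 9 of 22 higher, B and plasma cell genes 2, 4 and 8 of 19, and checkpoint genes 4 of 17, 8 of 18 and 11 of 18. Called lower were 2, 0 and 0 T cell, 3, 1 and 1 macrophage, and 2, 0 and 0 B and plasma cell genes. The median effect was -0.05, 0.45 and 0.62 for macrophage genes and -0.26, 0.06 and 0.57 for B and plasma cell genes. MHC class II genes had 0, 3 and 4 of 10 higher, with median effects of -0.03, 0.52 and 0.98. In contrast, mitosis genes had 1, 28 and 28 of 31 higher, with median effects of 0.28, 1.60 and 2.16. Interferon-stimulated genes had 55 higher at each week, of 57, 56 and 57 tested. Heat shock chaperones had 12, 8 and 4 of 40 higher, and cytochrome P450 genes 7, 10 and 14 of 29 lower, where 9.83%, 7.79% and 8.83% of all genes were called lower. For PDCD1 the effect was 0.41, 2.34 and 2.66 at weeks 7, 11 and 15, for FASLG 0.71, 1.51 and 2.10, and for NEAT1 0.72, -0.35 and -0.50.

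**Figure D4:**
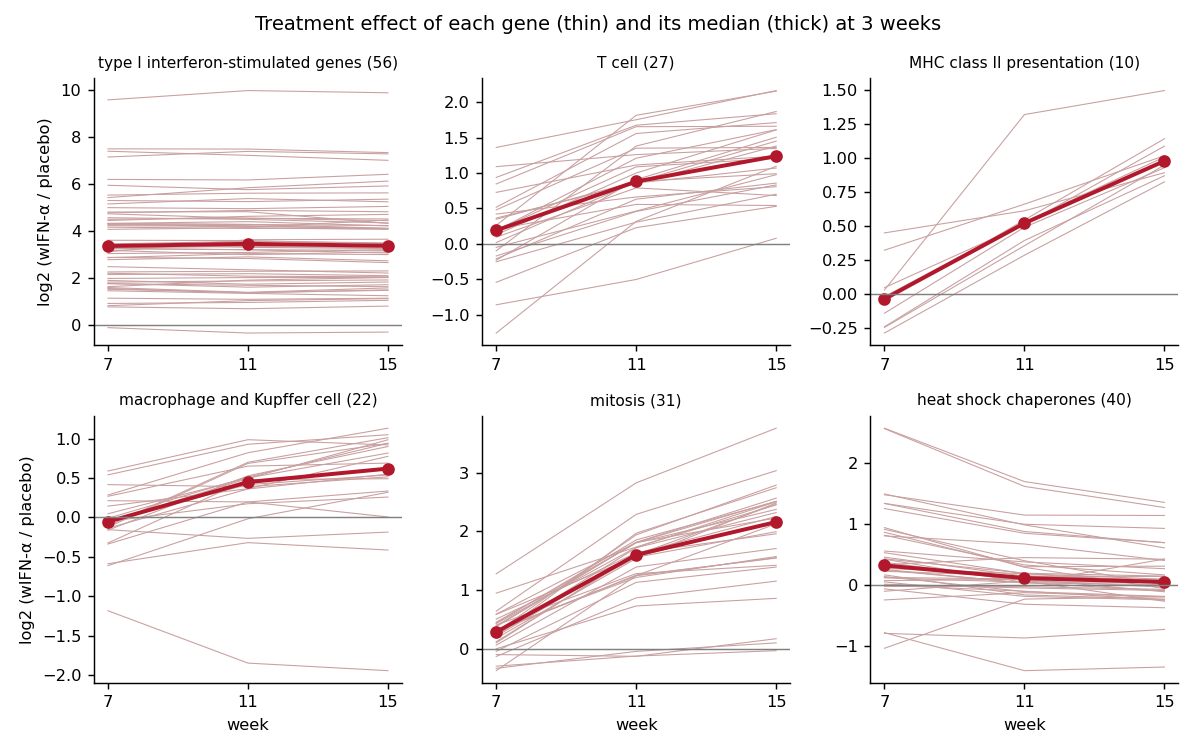
Treatment effect as log2 of wIFN-α over placebo at weeks 7, 11 and 15 for the genes of 6 lists, each thin line being 1 gene and the thick line the median, with the number of genes tested at all 3 weeks in brackets. Interferon-stimulated genes run level near a median of 3.3, T cell, MHC class II, macrophage and mitosis genes climb, and heat shock chaperones decline.

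Reads of WHV itself fell in treated animals relative to placebo animals over the same 8 weeks. In wIFN-α animals there were 11897 to 26183 virus reads per 1000000 gene reads at week 7 (median 14761) and 57.7 to 22823 at week 15 (median 5694), and in placebo animals 9710 to 26287 (median 19980) and 11154 to 28648 (median 22846). The arms overlapped at both weeks, and 5 of 8 treated animals lay under the lowest placebo animal at week 15. Virus reads were lower at week 15 than at week 7 in 7 of 8 wIFN-α animals and higher in 8 of 9 placebo animals, with mean log2 changes of -2.45 ± 3.15 (SD, n = 8) and 0.26 ± 0.36 (SD, n = 9), a difference of -2.71 (two-sided exact permutation test over 24310 splits, p = 0.00181). Poly(A) RNA of the virus was counted here, and the viral DNA was not.

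The spread among treated animals was wide. M1002 went from 12954 at week 7 to 835 at week 11 and 57.7 at week 15 (Wilson 95% interval 55.7 to 59.7, which covers counting error only), 225-fold lower, and F1020 from 18081 to 8042 and 164 (158.8 to 169.8), 110-fold lower. F1022, M1003 and F1018 ended at 2291, 4600 and 6788, and F1013 and F1014 at 13870 and 22823, from 17682 and 26183. M1012 was the one treated animal that ended higher, at 21561 from 14448. M1002 and F1020 thus carried much of the mean, and without M1002 the difference was -1.95 and without M1012 it was -3.15, with p between 0.000262 and 0.00637 over all animals left out in turn (exact permutation tests). The number of infected cells and the number of viral transcripts per cell cannot be told apart in these reads.

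**Figure D5:**
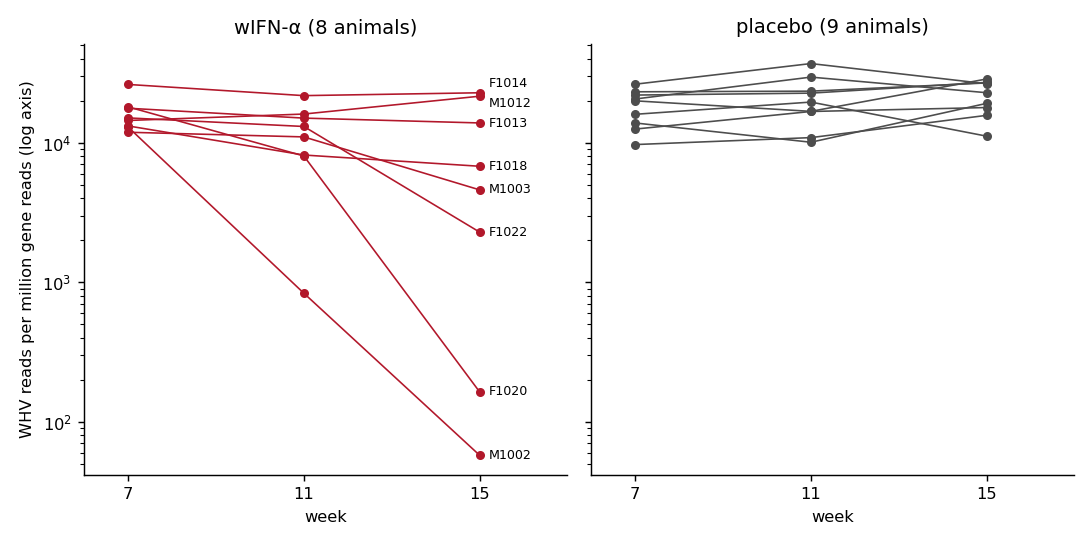
WHV reads per 1000000 gene reads (log axis) at weeks 7, 11 and 15 in 8 wIFN-α animals (left, named at week 15) and 9 placebo animals (right), with lines joining the biopsies of an animal. Placebo animals stay between 9710 and 36955, while treated animals spread from 57.7 in M1002 to 22823 in F1014 at week 15.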

How the data were processed

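Poly(A) RNA of liver biopsies was sequenced by the study as paired-end reads of 50 nucleotides. The authors mapped the reads with Bowtie2 to their woodchuck transcriptome assembly, counted them with SAMtools and normalized with DESeq, and CASAVA and FastQC are named too, with versions not given in the sources used here. The deposited values used here are expected counts per gene, which are unnormalized, and 54 of 1243003 entries are fractions. The deposited RPKM values served to check the unit. No column was without a sample. Runs of a biopsy were summed and rounded (43 runs, 8 biopsies with more than 1), genes not listed were taken as 0, and virus reads were kept out of library sizes and tests. The labels' weeks 8, 12 and 16 are weeks 7, 11 and 15 here, as the study counts from 0.

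Counts were analysed with edgeR 4.0.16 (R 4.3.3) with TMM and its filter for low counts. The quasi-likelihood test was used, and p-values were adjusted by Benjamini and Hochberg's method, with a threshold of 0.05. Animal was a block, with the week change of each arm as terms and 15 residual degrees of freedom. Same-numbered biopsies come from the same animal by the labels, and their deviations from group means correlated with a median r of 0.39 (17 pairs, -0.25 to 0.71), against -0.06 between animals (128 pairs). Treatment effects per week were fitted without a block and called with a fold change above 1.5 as well. Changes of single animals used log2(CPM + 0.1). On simulated counts of the main comparison (15370 genes, 50 changed at each fold), edgeR recovered 18, 39, 45 and 45 at folds of 1.5, 2, 3 and 4, and called 4 other genes. DESeq2 recovered 28, 42, 45 and 47 and called 21 others, and limma-voom recovered 20, 40, 46 and 45 and called 9 others. Virus reads were compared by an exact permutation test over animals, and their intervals are Wilson intervals of counting error.

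Named genes were the 12 highest and 12 lowest called differences with a mean of at least 1 CPM, up to 4 genes of the smallest p per list, and a set of interferon, lymphocyte, division and liver genes. The members and the 31 lists were chosen with earlier results of these data known, and the chaperone list was added after the values were seen. Genes of the lists not found under these symbols, such as NOS2, HLA-DQA1, GZMM and GNLY, were not analysed here. Alternatives were RLE scaling, no filter, the deepest run, DESeq2 1.42.0, limma 3.58.1 (voom), no replicate block, limma-voom with a random animal block over all 38 biopsies of weeks 7 and 15, M1004 included, a fold limit, lane or sex as terms, and each animal left out. Single runs of M1008 and an adjusted p under 0.1 were chosen after seeing the data. Python 3.11.15, numpy 2.4.6, pandas 2.3.3 and matplotlib 3.10.9 were used for summaries and plots.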

Additional observations from a re-analysis of the deposited data

Results flagged for a closer look

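Among 170 sets of animals tested (the log2 changes of 1 gene in 1 arm), 11 had a single animal apart from the others by Dixon's limit, and chance gives about 1 in 20. F1020 was apart within the wIFN-α arm for CXCL11 (change of 3.05, others 0.143 to 1.38), IDO1 (2.84, others -0.336 to 1.14), CD3D (2.06, others 0.197 to 0.915), NKG7 (1.80, others 0.258 to 0.811) and POU2AF1 (2.23, others 0.520 to 1.00). In the same arm, F1022 was apart for SELPLG (1.52, others 0.465 to 0.927) and M1012 for ZBP1 (0.148, others 0.784 to 1.2). In the placebo arm, F1021 was apart for PRMT6 (0.932, others 0.175 to 0.466), M1011 for OAS1 (1.09, others -1.01 to 0.0081) and GZMA (1.53, others -0.724 to 0.157), and M1005 for GZMB (0.852, others -0.669 to -0.022).

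The treatment effect differed by a test of the difference itself for 34 genes between weeks 7 and 15 and for 5 genes between weeks 7 and 11. The log2 change of virus reads differed between the arms by -2.71.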

How the results depend on the processing

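The 34 differences called between weeks 7 and 15 became 37 with RLE scaling, 28 without a filter, 26 with the deepest run, 25 with a fold limit of 1.5 and 40 with the deeper run of M1008. Beyond 1.5 times they became 667 with DESeq2, 72 with limma-voom, and 194 with limma-voom and a random replicate block over all 38 biopsies. They became 201 with M1004 included, 15 with sex by week, 74 with the shallower run of M1008 and 533 at an adjusted p under 0.1, and 0 with lane as a term and 0 with no replicate block. Without that pairing 607 genes changed under wIFN-α and 6 under placebo, in place of 2451 and 452. With a fold limit these were 795 and 114, and for placebo 888 with DESeq2 and 910 at an adjusted p under 0.1. The 5 differences between weeks 7 and 11 became 0 without a filter. Leaving out single animals gave 5 to 275 for the main count (M1003 5, F1015 6, F1016 7, M1005 8, F1018 and F1019 9, M1001 10, F1021 15, F1022 17, F1017 and F1020 18, M1002 122, F1014 130, M1008 177, M1012 184, M1011 275), 1413 to 2703 under wIFN-α (F1020 1413, F1018 1522, M1003 1630) and 176 to 558 under placebo (F1016 176, F1019 and M1001 210, F1015 214, M1008 235). The causes were not tested, and no fit gave any of the 34 genes the opposite sign.

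Signs turned for 8 named genes that were not called. With lane as a term RSAD2 was at -0.025, USP18 0.096, GBP1 0.39, CYP7A1 -0.60 and CYP2E1 -0.12. With the shallower run of M1008 IFIT1 was at -0.0047 and ALB at 0.016. With limma-voom USP18 was at 0.053, with no replicate block USP18 at 0.083 and ALB at 0.018, and with M1004 ALB at 0.022. Leaving out animals gave OAS1 -0.042 to 0.21, IFIT1 -0.039 to 0.089, USP18 -0.19 to 0.066, GBP1 -0.20 to 0.016, ALB -0.14 to 0.074 and CYP7A1 -0.15 to 0.24. Of 2436 values of named genes under alternatives, 1996 kept their direction and side of the threshold. At this depth and with 8 and 9 animals, the median standard error of a difference was 0.142 on the log2 scale.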
